A study of Mus musculus with 28 samples.

Results

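KAP1 regions with H3K9me3 are the deposited KAP1 ChIP-seq regions of mouse embryonic stem (ES) cells that shared at least 1 bp with a deposited H3K9me3 region, and 14952 of the 26553 KAP1 regions (56.3%) met this rule. The cells were J1 ES cells of strain 129S4/SvJae, grown with LIF and inhibitors of MEK and GSK3, transduced with the pLKO.puro lentiviral vector alone (shEmpty) or with an shRNA against Kap1 (shKap1), selected in puromycin and collected after 5 days. 5-hydroxymethylcytosine (5hmC) was measured in wild-type (WT) cells by immunoprecipitation and sequencing (hMeDIP-seq) beside input DNA, with 1 library per condition used here. RNA was sequenced from WT cells (3 shEmpty and 3 shKap1 libraries), from cells lacking Dnmt1, Dnmt3a and Dnmt3b (DNMT TKO; 3 and 3) and from cells lacking Tet1, Tet2 and Tet3 (TET TKO; 2 and 2). Each genotype was 1 line, and the mutant lines came from other laboratories, so that line and genotype cannot be told apart. H3K4me3 and H3K27me3 regions came from ChIP-seq of WT cells with 2 libraries each, and the KAP1 and H3K9me3 regions from ChIP-seq done before this series.

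KAP1, encoded by Trim28, is a co-repressor that Krüppel-associated box zinc finger proteins bring to specific DNA sequences, most of them in transposable elements. It recruits the histone methyltransferase SETDB1, which writes H3K9me3, and through it heterochromatin proteins and DNA methyltransferases. 5hmC is the first product of the oxidation of 5-methylcytosine by TET enzymes, and its gain at a methylated locus can precede loss of methylation. Imprinting control regions (ICRs) are the best-known single-copy targets, where the zinc finger protein ZFP57 binds the methylated hexamer TGCCGC and recruits KAP1.

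The sequences under the best-known members are shown first, because 8 members overlapped an ICR, the single-copy targets for which a motif is known. Each is the 300-base stretch of the member that held most copies of TGCCGC on either strand without touching an annotated exon. The plus strand of the mm9 (NCBIM37) reference is shown, with capitals for TGCCGC on either strand. Both H19 members lie upstream of the H19 gene, the IG-DMR member lies upstream of Meg3, and the Peg10 member covers the start site of Sgce.
Peg10 ICR, chr6:4697774-4698073: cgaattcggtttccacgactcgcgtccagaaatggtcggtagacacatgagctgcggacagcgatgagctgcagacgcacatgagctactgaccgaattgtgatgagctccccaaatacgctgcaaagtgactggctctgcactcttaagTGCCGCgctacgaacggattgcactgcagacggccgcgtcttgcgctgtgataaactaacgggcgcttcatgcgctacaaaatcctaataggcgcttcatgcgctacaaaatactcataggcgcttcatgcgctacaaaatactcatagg
H19 ICR, distal member, chr7:149767655-149767954: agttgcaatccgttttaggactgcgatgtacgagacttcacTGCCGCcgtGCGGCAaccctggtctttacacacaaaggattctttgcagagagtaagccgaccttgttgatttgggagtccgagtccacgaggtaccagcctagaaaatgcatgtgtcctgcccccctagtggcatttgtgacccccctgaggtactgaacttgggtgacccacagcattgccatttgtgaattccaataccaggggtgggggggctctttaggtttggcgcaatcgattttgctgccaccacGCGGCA
H19 ICR, proximal member, chr7:149765986-149766285: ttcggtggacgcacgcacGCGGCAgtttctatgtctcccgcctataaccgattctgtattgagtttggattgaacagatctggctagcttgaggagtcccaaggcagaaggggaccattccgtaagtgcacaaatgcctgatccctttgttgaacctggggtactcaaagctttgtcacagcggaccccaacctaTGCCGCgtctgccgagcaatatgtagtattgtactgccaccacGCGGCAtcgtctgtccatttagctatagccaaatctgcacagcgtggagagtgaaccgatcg
IG-DMR, chr12:110766436-110766735: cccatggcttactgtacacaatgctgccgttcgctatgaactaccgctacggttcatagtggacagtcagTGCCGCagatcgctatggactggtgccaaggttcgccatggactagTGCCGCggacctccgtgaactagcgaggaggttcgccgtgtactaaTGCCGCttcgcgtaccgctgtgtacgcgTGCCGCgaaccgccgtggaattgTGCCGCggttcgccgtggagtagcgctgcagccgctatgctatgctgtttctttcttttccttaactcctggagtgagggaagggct
Trappc9 ICR, chr15:72640223-72640522: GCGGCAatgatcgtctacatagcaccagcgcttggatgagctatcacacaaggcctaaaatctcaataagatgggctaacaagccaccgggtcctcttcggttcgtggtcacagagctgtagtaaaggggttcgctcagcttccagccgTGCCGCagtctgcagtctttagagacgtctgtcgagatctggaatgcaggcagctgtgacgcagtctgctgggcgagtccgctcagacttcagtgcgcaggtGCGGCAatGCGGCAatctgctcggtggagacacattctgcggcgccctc
Grb10 ICR, chr11:11926328-11926627: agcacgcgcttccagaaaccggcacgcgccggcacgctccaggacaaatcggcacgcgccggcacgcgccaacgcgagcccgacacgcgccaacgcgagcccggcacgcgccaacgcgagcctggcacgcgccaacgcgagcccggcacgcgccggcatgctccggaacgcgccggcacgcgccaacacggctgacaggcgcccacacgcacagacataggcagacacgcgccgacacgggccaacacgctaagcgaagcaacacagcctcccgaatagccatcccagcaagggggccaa
The IG-DMR window held 5 copies of the hexamer, the Trappc9 window 4, each H19 window 3 and the Peg10 window 1. As the windows were chosen for the hexamer, these counts are the most that a stretch free of exons held. The Grb10 stretches free of exons held none, although 4 copies lay elsewhere in that member. The Grb10 window was the richest in CpG with 49 in 300 bases. The central 300 bases of each region, which were not chosen for the hexamer, are another measure. Over all members, 2397 of 14952 central windows (16.03%) held TGCCGC on either strand. The count was 2491 of the 11270 central windows (22.1%) of KAP1 regions without H3K9me3 for which sequence was at hand.

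The libraries are summarised once. The hMeDIP-seq libraries held 4590132 (shEmpty input), 6522892 (shKap1 input), 7824611 (shEmpty 5hmC) and 8817570 (shKap1 5hmC) reads over the 6 deposited region sets. Another 4 hMeDIP-seq libraries carry labels and deposited names that give them different roles and were put in no group. The RNA libraries held between 18108431 and 29373696 reads over genes and between 898152 and 1803819 over transposable elements. Trim28 was at 1991, 1639 and 1627 CPM (reads scaled by library size) in WT shEmpty and 190, 156 and 149 in WT shKap1, at 2085, 1819 and 1701 against 327, 448 and 506 in DNMT TKO, and at 1771 and 1898 against 163 and 168 in TET TKO. The groups did not overlap in any genotype, and the fall was smaller in DNMT TKO than in WT by 1.28 on the log2 scale (edgeR interaction, adjusted p = 0.000803). Pluripotency markers summed to between 3636 and 3888 CPM in the shEmpty libraries and between 2200 and 2817 CPM in the shKap1 libraries, with 7 of the 8 listed genes found. Neuroectoderm markers (2 of 3 found) stood at 38.4 to 48.4 CPM in WT shEmpty and 103 to 122 CPM in WT shKap1, at 85.5 to 105 against 105 to 134 CPM in DNMT TKO and at 59.5 to 59.9 against 75.1 to 83.9 CPM in TET TKO. Mesoderm markers (3 of 3) were lower after knockdown with groups apart, at 2.87 to 4.66 against 1.92 to 2.12 CPM in WT, 10.7 to 14.4 against 4.04 to 4.66 CPM in DNMT TKO and 3.27 to 3.52 against 1.81 to 2.21 CPM in TET TKO. Endoderm markers were higher after knockdown with groups apart, at 8.05 to 9.70 against 11.5 to 13.5 CPM in WT. They stood at 4.01 to 6.48 against 7.27 to 9.26 CPM in DNMT TKO and 10.6 to 11.9 against 12.50 to 12.57 CPM in TET TKO. Fibroblast markers were higher in DNMT TKO (5.33 to 8.25 against 10.6 to 11.5 CPM), lower in TET TKO (7.05 to 7.28 against 4.72 to 5.28 CPM) and overlapped in WT. Trophoblast markers summed to 8.09 to 25.4 CPM over all libraries, with groups overlapping in each genotype. The part of all these lists in the values below was not tested.

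The members were mostly retroviral. Elements of the ERVK class (endogenous retroviruses, ERVs, that include the intracisternal A particles, IAPs) covered 69.7% of their bases, LINE-1 elements 15.0% and ERV1 elements 5.72%, against 36.9%, 24.1% and 6.55% in the 11601 KAP1 regions without H3K9me3. In all, 92.6% of the members' bases lay in a LINE, SINE, LTR or DNA element and 98.2% of members touched one, against 73.9% of bases and 87.2% of regions without H3K9me3. The element with the largest overlap was an ERVK in 10441 members, a LINE-1 in 2779, an ERV1 in 1190 and an ERVL in 13.

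IAPs supplied more members than any other family. IAPEz, the internal part of the full-length IAP with its LTRs, was the largest overlap of 6857 members, followed by L1Md_A with 1534, L1Md_F with 602 and L1Md_T with 526, which are LINE-1 subfamilies. L1Md names that differ only in a final number were pooled. MMERVK10C (425), RLTR6 (419), RLTR10 (406), solo IAPLTR2 (397), IAPEY3 (378), ETnERV (366) and MMETn (153) followed, and the 2-cell-stage family MERVL led none. Seen from the copies, 2775 of 2988 IAPEz copies (92.9%) overlapped a member. The share was 31.1% for MMERVK10C (375 of 1206), 19.5% for RLTR6 (210 of 1076), 10.6% for L1Md_A (1711 of 16215) and 2.95% for L1Md_T (684 of 23200). Among copies of at least 1 kb it was 95.5% for IAPEz, 56.0% for RLTR6, 41.5% for MMERVK10C, 26.1% for L1Md_A and 6.25% for L1Md_T. The MERVL copies that did touch a member numbered 19 of 1541 (1.23%).

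LINE-1 members sat near the 5′ end of full-length copies, and members in ERV families were more spread. In L1Md_A copies of at least 4000 bp, the centres of 1390 members lay at a median of 5.42% of the length from the 5′ end, and 99.9% fell in the first 25% of the length. L1Md_T and L1Md_F members had medians of 4.52% and 4.41%. The LINE-1 promoter lies at that end of the element. IAPEz members were spread over the whole provirus, with 33.2% of 5176 in the first 25% of the length, 27.3% in the middle and 39.6% in the last 25%. MMERVK10C members were mostly in the first 25% (66.2%), and MMETn members in the last 25% (58.9%).

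Members were wider and had higher peak scores than the other KAP1 regions. Their median width was 910 bp (quartiles 687 and 1297 bp) with a maximum of 10320 bp, against 600 bp (508 and 711 bp). The deposited score of the peak caller MACS had a median of 902 against 347. H3K4me3 regions overlapped 352 members (2.35%) against 1568 of the others (13.5%), and H3K27me3 regions 101 (0.676%) against 221 (1.91%). CpG density had close medians, 2.75 and 2.51 CpG per 100 bases, but was more spread in the other KAP1 regions. The quartiles were 2.01 and 3.54 in members against 1.21 and 4.02.

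The H3K9me3 under the members was nearly always of the class the depositors named KAP1-dependent: 14337 members overlapped only such regions, 612 only KAP1-independent ones and 3 both. The criterion behind the class is not given in the sources used here. In 8689 members (58.1%) every base lay in an H3K9me3 region, and in 844 under 50% of the bases did. In the other direction, 69.0% of the 14445 KAP1-dependent and 55.4% of the 572 KAP1-independent H3K9me3 regions held a KAP1 region.

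5hmC over the members was higher in shKap1 than in shEmpty cells. Members received 8.13% of the shEmpty input reads and 7.26% of the shKap1 input reads, but their part of the immunoprecipitated reads was 9.36% in shEmpty and 15.3% in shKap1. The median member had 18 and 23 input reads and 35 and 62 5hmC reads, shEmpty before shKap1. The other KAP1 regions received 4.05% and 3.61% of input reads and 4.59% and 5.16% of 5hmC reads. With 1 library per condition these differences have no replicate check and no test, and intervals cover counting error only.

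Each region's level was the log2 ratio of its 5hmC reads to its input reads, each plus 1 and divided by the library's reads over all region sets, for regions with at least 10 input reads. The median level over the 14714 members that passed was 0.00 in shEmpty and 0.91 in shKap1, and the median difference was 0.82 (quartiles 0.29 and 1.32). Over the 11278 other KAP1 regions the median levels were 0.04 and 0.46, and the median difference was 0.39 (quartiles -0.20 and 0.98), 0.43 below that of the members. The 5hmC level was at least 2-fold higher in shKap1 at 5990 members (40.7%) and at least 2-fold lower at 229 (1.56%), against 33.6% and 3.47% of all KAP1 regions that passed and 24.3% and 5.97% of those without H3K9me3. The 95% counting interval of the single region lay above 0 at 5526 members (37.6%) and below 0 at 91, against 1391 (12.3%) and 157 of the other KAP1 regions. Members had more reads, with medians of 18 and 23 input reads against 11 and 15, and more reads narrow an interval. These interval counts were not repeated on the other scalings given below.

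The size of the 5hmC difference depended on the scaling. A single deposited region, chr9:3000001-3038399, which held no member, took 35.9% of the shEmpty and 22.5% of the shKap1 5hmC reads. With its reads left out of the totals the members' median difference was 0.45 and 22.8% were at least 2-fold higher, and scaling by reads in H3K4me3 regions gave 0.43 and 22.0%. Another scaling shifts every region by 1 constant, here -0.37 and -0.39, so the gap of 0.43 between the sets cannot move with it. The other KAP1 regions then had medians of 0.02 and -0.0006, with 13.3% and 12.9% at least 2-fold higher, and 71.6% and 70.7% of members lay above 0. Levels moved as well, and the members' median in shEmpty was 0.31 and 1.28 on these scalings in place of 0.00, so a level is a rank among regions of a library and not an enrichment over input. All 5hmC levels and differences below are on the first scaling, and differences under about 0.4 turned or came near 0 on the other scalings. The input itself had a median log2 ratio of shKap1 to shEmpty of -0.12 over members and -0.13 over the others.

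**Figure D1:**
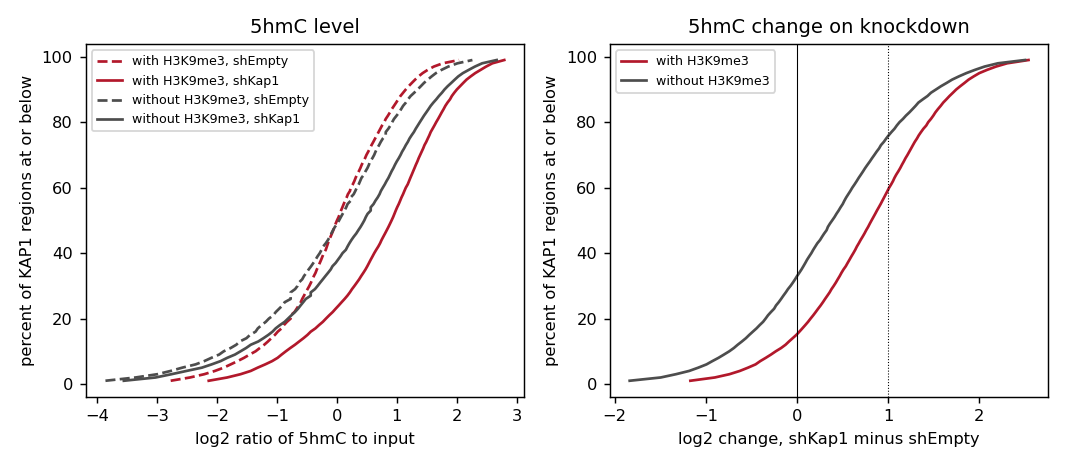
Cumulative percentage of KAP1 regions (y axis) by the log2 ratio of 5hmC to input in each condition (left) and by the log2 difference, shKap1 minus shEmpty (right), for members and for KAP1 regions without H3K9me3, with a dotted line at a 2-fold difference. In shEmpty the medians of the sets are close (0.00 and 0.04), and in shKap1 the members lie to the right (0.91 against 0.46).

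At 7 of the 8 ICR members the 5hmC difference had a counting interval above 0. At the Trappc9 ICR, 5hmC reads numbered 28 in shEmpty and 143 in shKap1 over 29 and 42 input reads, a log2 difference of 2.13 (interval 1.24 to 3.01). At the proximal H19 member they numbered 24 and 78 over 19 and 21 input reads (1.86, interval 0.77 to 2.95), and at the distal one 30 and 92 over 24 and 33 (1.48, interval 0.53 to 2.42). The H19 members are the paternally methylated control of H19 and Igf2, and both were on the same side.

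The other 5 ICR members included 1 with an interval across 0. At the Nhlrc1 ICR (chr13:47105014-47106869) 5hmC reads numbered 80 and 193 over 28 and 29 input reads (1.55, interval 0.72 to 2.37), and at the Peg10 ICR 64 and 139 over 55 and 53 (1.49, interval 0.81 to 2.18). At the IG-DMR they numbered 31 and 91 over 38 and 56 (1.31, interval 0.48 to 2.14), and at the Gnas ICR (chr2:174123251-174126715) 119 and 298 over 61 and 81 (1.25, interval 0.68 to 1.81). The exception was Grb10, with 24 and 25 5hmC reads over 25 and 29 input reads (0.18, interval -0.91 to 1.28), which became -0.18 and -0.20 on the other scalings. On both other scalings the intervals of the same 7 members stayed above 0. The median over the 8 ICR members was 1.49, against 0.92 over the 12 KAP1 regions in ICRs without H3K9me3 and 0.82 over all members. ICRs here are the deposited ICR regions. The Nhlrc1 region, and the Myo10 region among those without H3K9me3, are not in the ICR list printed with the paper.

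Repeat families differed in where they began and how far apart the conditions were. L1Md_A members had the highest level of the large families in shKap1, with medians of 0.82 in shEmpty, 2.00 in shKap1 and 1.14 for the difference (n = 1531). IAPEz members went from -0.23 to 0.81 with a median difference of 0.92 (n = 6691), IAPEY3 had 0.99, ETnERV 0.97, RLTR4 0.93 and MMETn 0.90. MMERVK10C (0.65), solo IAPLTR2 (0.65), L1Md_T (0.63) and L1Md_F (0.62) lay lower. RLTR10 members were high in shEmpty already (1.13, with a median difference of 0.39), and RLTR6 members had the smallest difference of the large families, 0.23, from -0.17 to 0.09, which was -0.14 and -0.16 on the other scalings.

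The gap between regions with and without H3K9me3 varied by family. Solo IAPLTR2 regions had a median difference of 0.65 with H3K9me3 and 0.22 without, L1Md_T regions 0.63 and 0.34, and L1Md_F regions 0.62 and 0.30. For IAPEz the medians were 0.92 and 0.75, for L1Md_A 1.14 and 0.90, and for ETnERV 0.97 and 0.83. RLTR6 was the other way round, with 0.23 and 0.33, as were solo IAPLTR1 regions, with 0.37 (n = 40) and 0.75 (n = 95). Within IAPEz members the medians by LTR type were close, and ran from 0.83 with IAPLTR2b to 1.00 with IAPLTR1a.

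**Figure D2:**
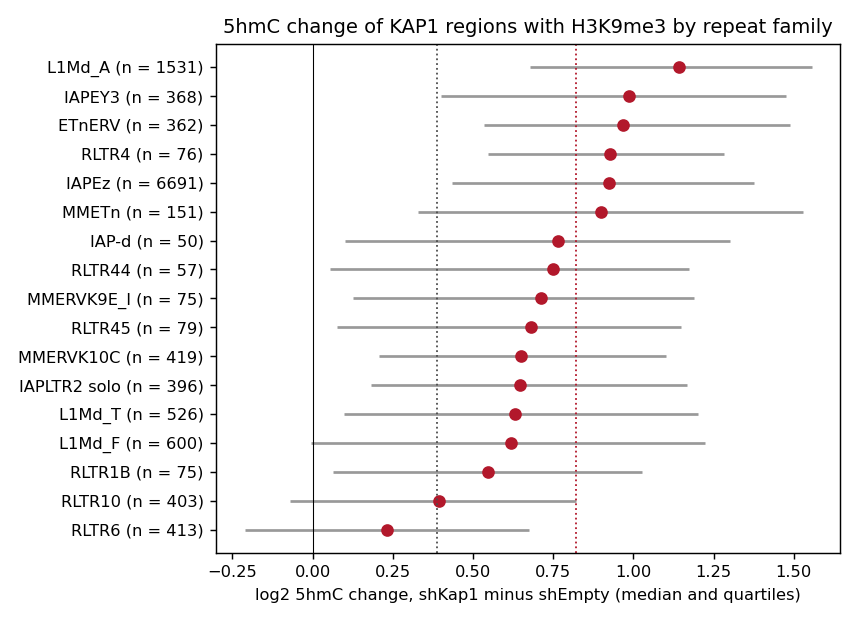
Median and quartiles (points and bars) of the log2 5hmC difference, shKap1 minus shEmpty, of members by the repeat family with the largest overlap, with dotted lines at the medians of all members (0.82) and of the other KAP1 regions (0.39). L1Md_A members have the largest median of the large families (1.14) and RLTR6 members the smallest (0.23, and -0.14 or -0.16 on the other scalings).

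Place along the IAP provirus went with 5hmC. IAPEz members in the first 25% of copies of at least 4000 bp had a median difference of 1.32 (n = 1716), and members in the rest of the copy 0.75 (n = 3460). In steps of 10% of the length from the 5′ end, the median difference was 1.02 at 0 to 10%, 1.43 at 10 to 20%, 1.31 at 20 to 30%, 0.66 at 40 to 50%, 0.49 at 70 to 80% and 0.79 at 90 to 100%. The level in shEmpty was lowest at 40 to 50% (-2.09), where CpG density was also lowest at 1.17 per 100 bases, against 4.12 at 0 to 10%. Width moved with place too, with medians of 2707.5 bp at 10 to 20% and 640.0 bp at 40 to 50%, and its part was not tested. IAPEY3 had 1.49 in the first 25% and 0.70 in the rest, ETnERV 1.15 and 0.93, MMERVK10C 0.71 and 0.58, and RLTR6 0.26 and 0.17.

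**Figure D3:**
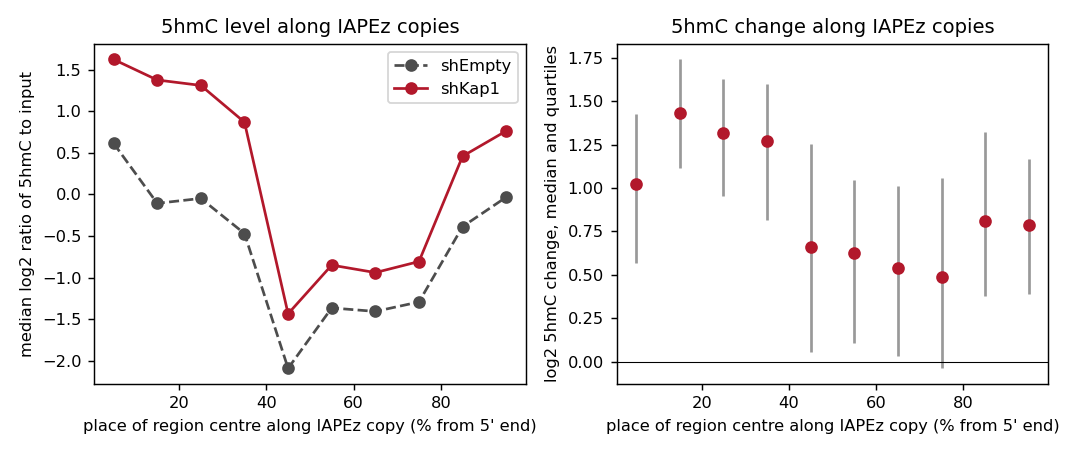
Median log2 ratio of 5hmC to input of IAPEz members in shEmpty and shKap1 (left) and median with quartiles of the difference (right), by the place of the region centre along IAPEz copies of at least 4000 bp in percent from the 5′ end. Both the shKap1 level and the difference are high over the first 40% of the length, and the lowest levels lie at 40 to 50% (-2.09 in shEmpty and -1.43 in shKap1).

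Wider, higher and CpG-richer members had larger differences. By width, the median difference was 0.49 up to 500 bp, 0.66 from 501 to 1000 bp, 0.89 from 1001 to 2000 bp and 1.30 above 2000 bp (n = 1707), and the other KAP1 regions had 0.33, 0.40, 0.52 and 0.24, the last over 37 regions. From the lowest to the highest quartile of the members' MACS score it was 0.53, 0.70, 0.88 and 1.11. By CpG per 100 bases it was 0.45 up to 1, 0.57 from 1 to 2, 0.75 from 2 to 3, 1.08 from 3 to 4 and 0.96 above 4, while the shEmpty level went from -1.15 in the lowest to 0.87 in the highest class. Across members, Spearman's rho with the difference was 0.25 for width, 0.25 for score and 0.22 for CpG density, and rho between CpG density and the shEmpty level was 0.56 (n = 14714 regions that share 4 libraries). Input depth moved with width, and members with 10 to 29 input reads had a median of 0.67 and those with at least 100 reads 1.23.

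Members in H3K4me3 or H3K27me3 regions had smaller differences. The 352 members in H3K4me3 regions had a median of 0.31, the 101 in H3K27me3 regions 0.26 and those in neither 0.83. On the other scalings the first of these medians was -0.05 and -0.07 and the second -0.10 and -0.12. Members with KAP1-dependent H3K9me3 had 0.83 and those with KAP1-independent H3K9me3 0.54 (n = 599). The ZFP57 hexamer in the central window went with no such gap, at 0.79 with it and 0.83 without. Autosomal and X-linked members both had 0.82.

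Single members at the ends of the range rested on few reads or an unusual input. Among the 5101 members with at least 50 input reads, the largest difference was 3.34, at chr6:24146416-24147739 (MMERVK9C). It stood over 16614 input reads in shEmpty and 1112 in shKap1 with 194 and 104 5hmC reads, so that the 5hmC reads themselves were fewer in shKap1. An IAPEz member at chr1:44347369-44348794 had 27 and 123 5hmC reads over 40 and 28 input reads (2.98, interval 2.08 to 3.89). The widest member, chr3:6297404-6307723 in L1Md_T, had 417 and 1456 over 135 and 161 (1.88, interval 1.52 to 2.25). Among the same 5101 members, the largest differences in the other direction were -1.68 at chrX:104649244-104650362 (L1_Mus1, 61 and 37 over 16 and 41) and -1.51 at chr9:58952250-58953210 (L1Md_F, 21 and 7 over 22 and 29). The members with most 5hmC reads, led by chrX:166526919-166527546 with 67982 and 58307 over 9935 and 15784 input reads (-0.55), were high in both conditions and lower in shKap1.

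RNA of the integrants in the members was higher after Kap1 knockdown in all 3 genotypes. Of the reads over all transposable elements, 2.80, 2.87 and 2.90% fell in integrants that overlapped a member in WT shEmpty and 16.1, 17.2 and 17.1% in WT shKap1. In DNMT TKO the shares were 3.64, 3.73 and 3.62% against 24.8, 20.8 and 20.3%, and in TET TKO 4.09 and 3.88% against 15.0 and 15.3%. No shKap1 library overlapped a shEmpty library of its genotype. In bulk RNA, more cells that express an element and more RNA per cell cannot be told apart. The summed level of these integrants was 1448 ± 18.3 CPM (SD, n = 3) in WT shEmpty and 11718 ± 782 CPM in WT shKap1, 8.09-fold higher, and the fold was 9.31 in DNMT TKO and 6.21 in TET TKO. The TET TKO sum held 1 family, RLTR45, that was high without knockdown and did not rise. RLTR45 supplied a mean of 515 of the 2024 CPM in TET TKO shEmpty and 486 of the 12560 CPM in TET TKO shKap1. Its mean was 4.65 CPM in WT shEmpty, and its part in the fold of TET TKO was not tested.

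Single integrants were tested in 1 edgeR quasi-likelihood fit of all 16 RNA libraries, and an integrant was called with an adjusted p under 0.05 and at least a 2-fold change. Of 18213 integrants that overlapped a member, 6239 had no read in any library and 7073 passed the minimum of 16 reads over all libraries. An element silent in shEmpty passes through its shKap1 reads alone, so the shares below describe only what passed. In WT, 4044 of the 7073 (57.2%) were called up and 15 down, where the background over all 123880 integrants tested was 12.1% up and 2.05% down. In DNMT TKO 5082 (71.9%) were called up and 6 down, against 15.0% and 0.944%, and in TET TKO 4249 (60.1%) up and 15 down, against 14.7% and 0.971%. The median log2 changes were 3.73, 4.09 and 4.26, beside 0.23, 0.27 and 0.33 over all integrants tested.

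A smaller share was called among integrants in KAP1 regions without H3K9me3. Of 3023 tested, 775 (25.6%) were called up in WT, 1476 (48.8%) in DNMT TKO and 1056 (34.9%) in TET TKO. Integrants of members with only KAP1-independent H3K9me3 had 63.3, 64.5 and 64.5% called up (n = 256), and those with KAP1-dependent H3K9me3 56.9, 72.1 and 59.9% (n = 6817). Leaving out the 106 that share bases with an exon on the same strand left 3990, 5028 and 4200 called up.

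IAPEz had the highest summed level of the families after knockdown. The 2775 IAPEz copies in members summed to 90.2, 97.9 and 108 CPM in WT shEmpty and 4465, 5545 and 5425 CPM in WT shKap1, 52.2-fold higher. In DNMT TKO they summed to 80.1, 71.3 and 130 CPM against 9331, 7236 and 6438 CPM (81.7-fold), and in TET TKO to 79.9 and 78.1 CPM against 4153 and 4122 CPM (52.3-fold). The shKap1 libraries lay far above the shEmpty libraries in every genotype, and in shEmpty DNMT TKO overlapped WT while both TET TKO libraries lay below WT. Of 2445 tested copies, 83.1, 95.7 and 82.8% were called up in WT, DNMT TKO and TET TKO, and the 84 IAPEz copies in no KAP1 region went from 0.17, 0.04 and 0.07 to 4.46, 5.59 and 4.42 CPM in WT (53.0-fold).

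The other ERV families counted in members had lower folds, and not all of them rose. RLTR1B copies (n = 90) summed to 191, 201 and 238 CPM in WT shEmpty and 135, 107 and 105 CPM in WT shKap1 (0.549-fold). The RLTR1B fold was 1.07 in DNMT TKO and 0.87 in TET TKO, and RLTR45 had a fold of 0.94 in TET TKO. MMERVK10C summed to 45.7, 41.9 and 42.8 CPM in WT shEmpty and 823, 897 and 860 CPM in shKap1 (19.8-fold; 16.2 in DNMT TKO and 23.2 in TET TKO), with 85.4% of 260 tested copies called up in WT. RLTR6 summed to 4.39, 4.20 and 5.98 CPM against 80.6, 152 and 144 CPM (25.9-fold; 10.4 and 48.2), although its 5hmC difference was the smallest of the large families. Its share of copies called up was 73.9% in WT, 39.6% in DNMT TKO and 59.5% in TET TKO (n = 111). ETnERV was 5.63-fold higher in WT, 5.42-fold in DNMT TKO and 12.9-fold in TET TKO, with 78.7, 85.2 and 80.4% of 230 copies called up.

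A larger share of copies was called in members than in no KAP1 region for each of 4 families. For ETnERV the shares without KAP1 were 47.0, 57.9 and 56.1% (n = 285), for MMETn 45.7, 53.4 and 51.4% (n = 208) against 77.6, 78.9 and 84.5% in members (n = 161), and for RLTR6 17.2, 25.9 and 27.6% (n = 58). MMERVK10C had 71.9, 77.1 and 80.5% without KAP1 (n = 231) and 85.4, 85.8 and 87.3% in members. MERVL went its own way: its 1038 tested copies in no KAP1 region had 84.8, 77.5 and 94.1% called up, and only 16 tested copies touched a member.

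LINE-1 integrants differed by subfamily and genotype already without knockdown. L1Md_A copies in members summed to 63.6, 52.3 and 54.2 CPM in WT shEmpty and 191, 243 and 260 CPM in WT shKap1 (4.08-fold), to 217, 191 and 202 CPM against 648, 836 and 711 CPM in DNMT TKO (3.602-fold) and to 30.6 and 31.6 CPM against 368 and 361 CPM in TET TKO (11.7-fold). The shEmpty libraries of DNMT TKO were all above and those of TET TKO all below the WT ones. L1Md_T copies summed to 78.3, 71.9 and 77.4 CPM in WT shEmpty but to 25.0, 25.5 and 29.0 CPM in DNMT TKO shEmpty and 51.0 and 55.9 CPM in TET TKO shEmpty. After knockdown they reached 203, 216 and 217 CPM in WT (2.79-fold), 160, 194 and 160 CPM in DNMT TKO (6.47-fold) and 198.6 and 199.7 CPM in TET TKO (3.73-fold). Genotypes also differed at copies in no KAP1 region. There L1Md_A had mean sums of 164, 154 and 91.0 CPM in WT, DNMT TKO and TET TKO shEmpty, and folds of 2.005, 3.78 and 5.12. L1Md_T there had 1535, 333 and 627 CPM, and folds of 1.06, 4.18 and 2.45.

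In members, the shares of single LINE-1 copies called up did not rank the genotypes as the summed folds did. Of 1308 tested L1Md_A copies in members, 28.7% were called up on knockdown in WT, 58.9% in DNMT TKO and 43.4% in TET TKO, against 11.8, 39.1 and 21.7% of the 1690 in no KAP1 region. For L1Md_T the shares were 29.7, 62.2 and 28.6% of 444, against 6.76, 36.8 and 14.6% of 5341. Without knockdown, DNMT TKO had 302 of the 1308 L1Md_A copies (23.1%) called up against WT, and 100 of the 444 L1Md_T copies (22.5%) and 51 of the 332 L1Md_F copies (15.4%) called down, where 3.48% of all integrants were called up and 6.45% down. Of copies in no KAP1 region, 5.86% of L1Md_A were called up, and 38.2% of L1Md_T and 10.8% of L1Md_F were called down.

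**Figure D4:**
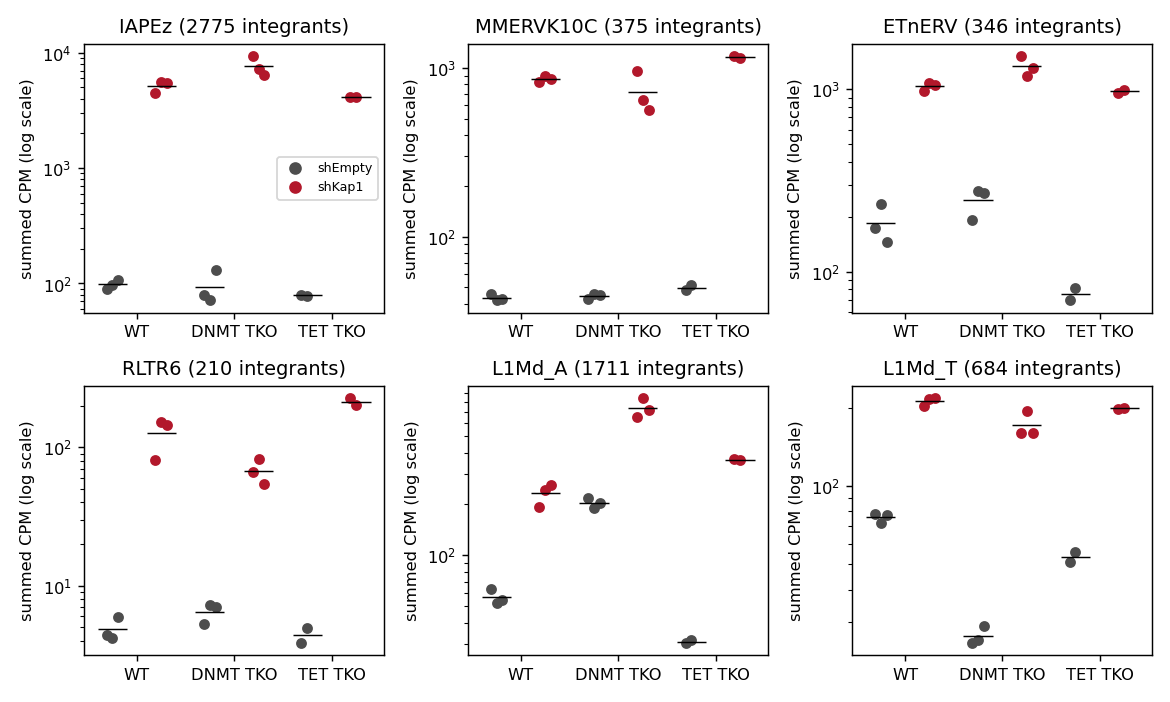
Summed CPM of integrants in members (log axis) by family, with 1 point per library and a line at the group mean, for shEmpty and shKap1 in WT, DNMT TKO and TET TKO. Every shKap1 library of IAPEz lies between 4122 and 9331 CPM and every shEmpty library between 71.3 and 130 CPM.

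Fewer integrants of the members were called between genotypes without knockdown than on knockdown. DNMT TKO shEmpty had 645 of the 7073 (9.12%) called up and 352 (4.98%) down against WT shEmpty, where the background was 3.48% and 6.45%. TET TKO shEmpty had 210 (2.97%) called up and 178 (2.52%) down, against 1.74% and 2.33%. With DESeq2 these 997 and 388 calls were 584 and 227. These comparisons and those of knockdown in WT share the WT shEmpty libraries. The knockdown effect itself was compared with its sign, so that a weaker fall counts as higher. It was called higher in DNMT TKO than in WT at 156 integrants (2.21%) and lower at 129 (1.82%), against 1.33% and 0.473% of all tested. In TET TKO it was called higher at 80 (1.13%) and lower at 74 (1.05%), against 0.831% and 0.242%. The 285 calls for DNMT TKO were 486 with limma-voom and 173 with DESeq2, and the 154 for TET TKO 92 with DESeq2. Without the first or the second TET TKO shEmpty library, the 154 calls for TET TKO became 92 or 97 and the 388 calls between TET TKO and WT shEmpty became 252 or 256.

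Single integrants showed the range. An IAPEz copy at chr7:25363186-25369149, which shares an exon with Zfp575, had 0, 0 and 0 reads in WT shEmpty and 656, 880 and 765 in WT shKap1, at least 936-fold higher when 3 reads stand in for the sum of the empty group (edgeR adjusted p = 1.24e-223). An IAPLTR3 element at chr17:32854833-32856743 had 0, 0 and 0 against 402, 469 and 454 reads, at least 542-fold higher (edgeR adjusted p = 1.38e-198). Both were called up in all 3 genotypes. The members over them had 5hmC differences of 1.84 and 1.32.

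In the mutants the largest rises were again IAPs. An IAPEz copy at chr7:27771474-27773576 had no read in DNMT TKO shEmpty and 396, 258 and 470 in shKap1, at least 403-fold higher (edgeR adjusted p = 7.3e-142). An IAPEY3 copy at chr7:16397780-16404044 had none against 425, 267 and 322 (at least 372-fold), but 0, 1 and 0 against 9, 12 and 11 in WT, and its member had a 5hmC difference of 0.42. In TET TKO an IAPEz copy at chr1:59401992-59407023 had 0 and 0 reads against 255 and 224 (at least 214-fold), and another at chr9:27604927-27606462 had 0 and 0 against 253 and 207 (at least 205-fold).

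Falls were rare and smaller. A RLTR1A2 LTR at chr8:113035051-113035593, inside Hydin, had 44, 62 and 57 reads in WT shEmpty and 3, 3 and 2 in shKap1, a log2 change of -4.02 ± 0.42 (SE, edgeR adjusted p = 5.93e-20), and its member was one with lower 5hmC in shKap1 (-1.30). A MMERVK10D3 element with its RLTR10D2 LTR at chr8:53445193-53445909 fell in all 3 genotypes, by 3.12 in WT and 2.63 in DNMT TKO on the log2 scale. It had 82 and 76 reads in TET TKO shEmpty and 2 and 3 in shKap1, and 78, 110 and 101 reads in DNMT TKO shEmpty and 11, 15 and 17 in DNMT TKO shKap1. A MMERGLN provirus at chr1:52369556-52377974 fell in DNMT TKO (90, 282 and 220 reads against 43, 56 and 70) and had 30, 42 and 36 against 30, 19 and 22 reads in WT.

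Without knockdown, a few integrants separated a mutant line from the WT line as fully as others separated shKap1 from shEmpty. Line and genotype cannot be told apart here. An L1Md_A copy at chr5:68604422-68613477 had 0, 0 and 0 reads in WT shEmpty and 152, 206 and 209 in DNMT TKO shEmpty, at least 189-fold higher (edgeR adjusted p = 1.5e-94), and knockdown brought 5, 26 and 18 reads in WT. A RLTR10 element at chr1:74652632-74655468, inside Stk36, had 33, 52 and 65 reads in WT shEmpty and none in DNMT TKO shEmpty, at least 49.6-fold lower. A RLTR45 provirus at chr3:19713691-19721080 had 1, 0 and 1 reads in WT shEmpty and 1017 and 839 in TET TKO shEmpty (log2 10.03, edgeR adjusted p = 1.62e-183). RLTR45 elements in members as a family summed to 498 and 533 CPM in TET TKO shEmpty against 2.55, 6.47 and 4.92 CPM in WT shEmpty. Most of that sum was 1 copy at chr4:8044183-8051623, over an exon of Gm11800, with 308 and 345 CPM in TET TKO shEmpty. A RLTR9E LTR at chr13:66380999-66381399 had 164, 244 and 203 reads in WT shEmpty and 2 and 1 in TET TKO shEmpty (log2 -7.12, edgeR adjusted p = 5.12e-77).

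The share of integrants called up was larger under members with a larger 5hmC difference. From the lowest to the highest quartile of the 5hmC difference, 46.9, 54.8, 60.2 and 66.6% of integrants were called up in WT, 62.0, 70.0, 75.9 and 79.5% in DNMT TKO, and 47.1, 57.4, 65.2 and 70.7% in TET TKO. 5hmC was measured in WT cells only, so the shares in both mutants are set against a measurement made in WT. Within IAPEz alone the shares in WT were 71.1, 82.0, 86.4 and 93.0%, and within L1Md_A 23.9, 26.9, 31.0 and 33.3%. At IAPEz copies called up and not called up, the median 5hmC differences were 1.21 and 1.05 in DNMT TKO and 1.25 and 0.94 in TET TKO. At L1Md_A copies they were nearly equal in DNMT TKO (1.17 and 1.16), and were 1.23 and 1.10 in TET TKO. Width and read depth of the members moved with the 5hmC difference, and their part was not tested.

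Among the genes nearest to members, those called up made a larger share than among all genes tested. A transcription start site lay within 20 kb of 5335 members (35.7%). They had 3115 nearest genes, of which 1453 passed the minimum of 16 reads. A gene silent in shEmpty can pass through its shKap1 reads alone, so the shares of genes also describe only what passed. In WT 365 of the 1453 genes (25.1%) were called up and 53 (3.65%) down, against 10.8% and 6.54% of the 20321 genes tested. In DNMT TKO 340 (23.4%) were called up and 23 (1.58%) down, against 10.1% and 2.41%, and in TET TKO 311 (21.4%) up and 32 (2.20%) down, against 8.05% and 4.46%. Leaving out genes whose exons share a member's integrant left 344, 316 and 292 called up. The knockdown effect was called higher in DNMT TKO than in WT for 57 of the 1453 genes (3.92%), below the 4.66% of all genes, and lower for 69 (4.75%), against 2.48%. It was called higher in TET TKO for 39 (2.68%) and lower for 52 (3.58%), against 2.08% and 2.13%.

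The share depended on distance. In WT it was 37.7% of 69 genes whose start site lay inside a member, 29.0% of 372 within 5 kb, 22.8% of 1012 from 5 to 20 kb, 17.6% of 1179 from 20 to 100 kb and 16.5% of 310 beyond. For genes nearest only to KAP1 regions without H3K9me3 the shares were 7.83, 10.9, 12.99, 13.5 and 21.3%, in the opposite order. Members in ETnERV copies had the highest share of the families counted: 24 of 47 nearest genes (51.1%) were called up in WT, 27 in DNMT TKO and 26 in TET TKO. For IAPEz members the count was 84 of 361 (23.3%) in WT.

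**Figure D5:**
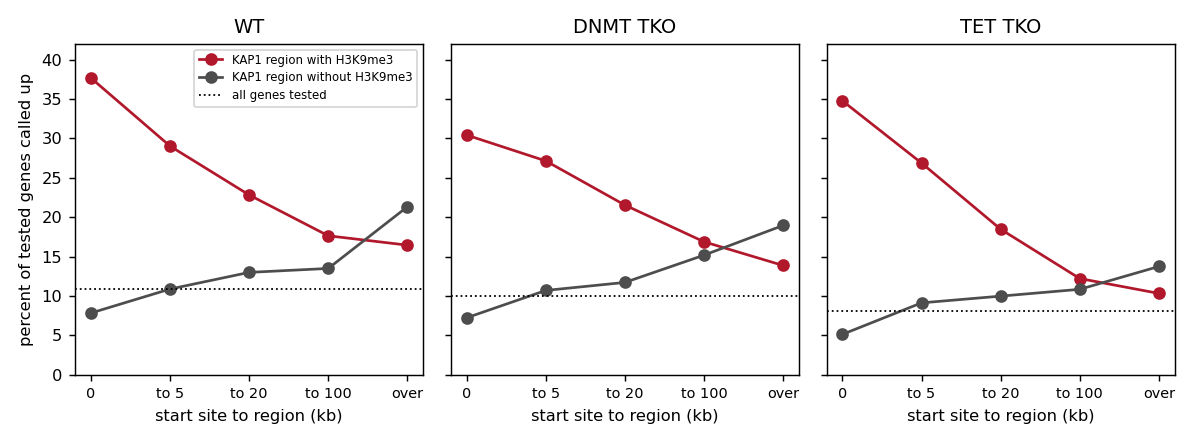
Percent of tested genes called up on Kap1 knockdown by the distance from start site to region (0 means the start site lies inside), for genes nearest to members and genes nearest only to other KAP1 regions, in the 3 genotypes. The dotted lines mark all genes tested. In WT the members' share goes from 37.7% to 16.5% with distance.

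The largest rises near members were of genes silent in shEmpty. The ranking favours such genes, because they can pass the read minimums through shKap1 reads alone and then have the largest log2 changes. Mmp10, a secreted matrix metalloproteinase, lay 6762 bp from an MMETn member and had 0, 0 and 0.04 CPM in WT shEmpty and 10.7, 11.1 and 11.9 CPM in WT shKap1 (log2 9.23, edgeR adjusted p = 1.61e-09). It was also called up in DNMT TKO, where it was at least 175-fold higher, and in TET TKO. Cml3 lay 1858 bp from an ETnERV member and had no read in WT shEmpty and 23, 85 and 72 reads in shKap1, at least 72.1-fold higher (edgeR adjusted p = 9.96e-07). Gm16572, a transcript 250 bp from an IAPEz member, had none against 30, 50 and 44 reads (at least 50.3-fold), and 1, 1 and 3 against 463, 394 and 483 reads in DNMT TKO.

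Other silent genes behaved alike. Gm20429 (log2 8.52 in WT), A630077J23Rik (8.40, beside an ETnERV member) and Sectm1a (8.15, 6110 bp from an IAPEz member) were called up in all 3 genotypes. Ugt3a2, a glycosyltransferase 4093 bp from an IAPEY3 member, had 0, 0 and 1 reads against 321, 229 and 275 in DNMT TKO (log2 9.34, edgeR adjusted p = 7.68e-11) and 14, 24 and 14 reads in WT shKap1. In TET TKO Clec4b2, a C-type lectin, had 0 and 0 reads against 39 and 25, at least 28.3-fold higher, and lay 8606 bp from an IAPEz member. The members beside these genes had 5hmC differences from -0.09 (Sectm1a) to 1.56 (Clec4b2).

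Fewer genes near members fell. Gm6792, whose start site lies in a RLTR10 member, had 46.5, 32.6 and 32.7 CPM in WT shEmpty and 6.40, 5.59 and 6.08 CPM in shKap1 (log2 -2.63 ± 0.13, edgeR adjusted p = 4.98e-11), and fell by 2.39 in DNMT TKO. 2310043M15Rik fell by 2.34 and D930048N14Rik by 2.16 in WT on the log2 scale, and Abcc12, an ABC transporter, fell by 3.98 from 6, 20 and 19 reads to 0, 1 and 1. In DNMT TKO Nefm, the medium neurofilament chain, fell by 1.75 and Timm8a2 by 1.81, and in TET TKO Ddr2, a collagen receptor kinase, fell by 2.35 and Zranb3 by 2.17. Gm17514 had 2 and 4 reads against 0 and 0 in TET TKO (log2 -4.42, edgeR adjusted p = 0.0351), a call lost without TET TKO shEmpty replicate 2 (adjusted p = 0.176) or either shKap1 library (0.174 and 0.153).

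Imprinted genes nearest to members mostly rose in WT. Of 9 tested, 6 were called up and 1 down in WT, 2 up in DNMT TKO and 4 up in TET TKO, beside 14, 5 and 10 up of all 36 imprinted genes listed. Igf2, the fetal growth factor next to H19, had 5.83, 10.6 and 12.4 CPM in WT shEmpty and 91.3, 79.3 and 67.5 CPM in shKap1 (log2 3.02 ± 0.23, edgeR adjusted p = 2.43e-07), with log2 changes of 4.61 in DNMT TKO and 1.71 in TET TKO. H19, a maternally expressed non-coding RNA, had 1.22, 2.38 and 2.90 CPM against 15.5, 10.999 and 10.7 CPM (log2 2.47, adjusted p = 7.04e-08). Both genes of the locus were thus higher, and its 2 members were those with 5hmC differences of 1.86 and 1.48.

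Other imprinted genes divided by genotype. Inpp5f had 10.5, 10.99 and 11.7 CPM in WT shEmpty and 39.3, 39.7 and 42.4 CPM in shKap1, but 36.5, 35.4 and 39.5 CPM in DNMT TKO shEmpty already and 35.7, 42.7 and 42.1 CPM in DNMT TKO shKap1. Meg3 went from 309, 264 and 261 to 638, 584 and 565 CPM in WT. In DNMT TKO it had 540, 521 and 529 CPM in shEmpty and 316, 444 and 463 CPM in shKap1 (log2 -0.38, edgeR adjusted p = 0.016), and in TET TKO 133 and 144 CPM against 206 and 187 CPM. Sgce, in the Peg10 domain, had 2.83, 4.30 and 5.63 CPM in WT shEmpty and 24.5, 16.02 and 15.1 CPM in WT shKap1 (edgeR adjusted p = 5.36e-07). Nespas was called down in WT (-1.11), Cdh15 up (1.97, from under 0.15 CPM), and Herc3 (0.80) and Grb10 (-0.05) were not called.

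Further lists held few genes near members. Of 45 tested zinc finger genes nearest to a member, 8 (17.8%) were called up in WT, 6 (13.3%) in DNMT TKO and 4 (8.89%) in TET TKO, beside 47, 36 and 27 of 377 zinc finger genes in all and 10.8, 10.1 and 8.05% of all genes. Zfp629, whose start site lies 80 bp from a member, went from 3.17, 3.09 and 3.68 to 27.8, 26.5 and 26.5 CPM in WT (log2 3.02, edgeR adjusted p = 8.1e-11). Zfp560 rose by 2.65 in WT and 5.01 in TET TKO. All 4 genes of the 2-cell stage list near members, Zscan4d, Tdpoz3, Tdpoz4 and Arg2, were called up in all 3 genotypes, with log2 changes in WT of 3.41, 4.39, 2.75 and 2.56, beside 12, 11 and 12 of all 13 genes of that list tested. Tex101, a germline gene, had 0.33, 0.28 and 0.21 CPM against 0.42, 0.39 and 0.69 CPM in WT (edgeR adjusted p = 0.088) and rose by 3.21 in DNMT TKO and 2.69 in TET TKO. None of the 4 pathway genes near members (Setdb1, Suv39h2, Gm15446 and Zfp932) was called in any genotype at an adjusted p under 0.05 with a 2-fold change.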

How the data were processed

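hMeDIP-seq, ChIP-seq and RNA-seq files were used as deposited by the authors, on the mm9 build. The deposited counts are reads per region for hMeDIP-seq (whether reads with several placements were kept is not given in the sources used here) and uniquely placed, strand-specific reads per gene and per repeat integrant for RNA-seq. The deposited KAP1 table also carries the MACS score. The submitters' processing notes name Bowtie2 2.2.1, HISAT2 2.0.1, featureCounts 1.5.1, HTSeq 0.6, MACS 1.4, SICER 1.1 and bedtools 2.25. In the repeat track, ERV fragments and their LTRs were merged. Unique mapping leaves reads of near-identical copies out, so levels of young families are understated.

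Members and lists were chosen with earlier results of these data known. Overlaps (1 bp) were made with bedtools 2.31.1. 5hmC was compared as the log2 ratio to input after adding 1 read and dividing by the reads over all 6 region sets, which partly overlap, for regions with at least 10 input reads, with no test. Counting intervals are 95% (1.96 SE of the 4 log counts). RNA counts with at least 16 reads over all libraries entered 1 fit of 6 groups with edgeR 4.0.16 (quasi-likelihood, TMM, gene library sizes also for integrants, Benjamini-Hochberg over all features, R 4.3.3). limma 3.58.1 (voom) and DESeq2 1.42.0 were alternatives, and other scalings, minimums, overlaps, distances, left-out libraries and a replicate block were tried. The fit was tested on simulated data. The SE printed with a log2 change is the size of the change divided by the square root of the edgeR F statistic. That SE is too small for a group of few reads, and it is left out where a group held next to no reads. RNA replicates came from independent experiments.

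The replicate numbers pair the WT and DNMT TKO libraries over genes: same-numbered libraries deviated together (correlations 0.391, 0.198 and 0.219, and 0.499, 0.314 and 0.167), while TET TKO gave -0.038. Over integrants not every correlation passed 0.1.

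Named were all members in ICRs, the 5 largest 5hmC differences in each direction with at least 50 input reads, the 3 widest members and the 3 with most 5hmC reads. Of integrants called with at least 200 reads, the 2 largest changes per contrast and direction were taken, and of genes called with at least 500 reads and groups apart, the 6 largest rises and 4 largest falls in WT and 3 of each in the mutants. Of these, the ones that add to the text are printed.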

Additional observations from a re-analysis of the deposited data

Results flagged for a closer look

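Differences of the knockdown effect between genotypes were tested as interactions in the same edgeR fit (WT 3 and 3, DNMT TKO 3 and 3, TET TKO 2 and 2 libraries). Among integrants in KAP1 regions with H3K9me3 the signed effect was called higher in DNMT TKO than in WT at 156 of 7073 (2.21%) and lower at 129 (1.82%), against 1.33% and 0.473% of all integrants tested. In TET TKO it was called higher at 80 (1.13%) and lower at 74 (1.05%), against 0.831% and 0.242%. Among the genes nearest to these regions it was called higher in DNMT TKO for 57 of 1453 (3.92%), below the 4.66% of all genes, and lower for 69 (4.75%, against 2.48%), and higher in TET TKO for 39 (2.68%, against 2.08%) and lower for 52 (3.58%, against 2.13%). Trim28 fell less in DNMT TKO than in WT (interaction 1.28 on the log2 scale), and its part in the DNMT TKO values was not tested.

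An IAPEz copy at chr11:104720930-104723643 had an interaction of 8.09 in DNMT TKO: it had 0, 1 and 1 reads against 0, 1 and 4 in WT and none against 105, 75 and 90 in DNMT TKO. An IAPEz copy at chr4:68621832-68628928 had one of 7.00, with 11, 21 and 22 reads against 17, 48 and 32 in WT and none against 45, 28 and 27 in DNMT TKO. A MuLV provirus at chr8:125954853-125958431 was on the other side (-7.66), with 0, 1 and 3 reads against 194, 479 and 429 in WT and 0, 0 and 2 against 0, 0 and 3 in DNMT TKO. The L1Md_A copy at chr5:68604422-68613477 had -6.99, with 152, 206 and 209 reads in DNMT TKO shEmpty already and 129, 234 and 266 after knockdown. With edgeR, the call at the first of these was lost without WT shEmpty replicate 2 or replicate 3 (adjusted p = 0.135 in both), and that of the MuLV provirus without DNMT TKO shEmpty replicate 3 (adjusted p = 1.0).

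In TET TKO an IAPEy copy at chr2:125782911-125787450 had an interaction of 6.18 (0 and 0 reads against 51 and 44, beside 1, 3 and 2 against 8, 13 and 10 in WT), and an L1Md_A copy at chr1:85217148-85225388 one of 5.81 (0 and 0 against 85 and 76, beside 2, 3 and 1 against 9, 29 and 31 in WT). An ERVB2_1-I element at chr1:175496305-175502625, over an exon of Pydc4, had -9.06, with 0, 0 and 0 reads against 51, 91 and 83 in WT and 1 and 1 against 1 and 1 in TET TKO. A RLTR1B element at chr4:146859641-146863163 had -5.37, with none against 56, 87 and 50 in WT and 1 and 5 against 34 and 33 in TET TKO. Leaving out a single library ended each of these 4 calls. With edgeR and without TET TKO shEmpty replicate 2, the adjusted p was 0.0836 for IAPEy, 0.145 for L1Md_A, 0.133 for ERVB2_1-I and 0.671 for RLTR1B. Without TET TKO shEmpty replicate 1 it was 0.0979 for IAPEy, 0.164 for L1Md_A and 0.126 for ERVB2_1-I. Without WT shEmpty replicate 2 it was 0.0888 for IAPEy, 0.137 for L1Md_A and 0.0751 for RLTR1B, without WT shEmpty replicate 1 it was 0.0588 for L1Md_A, and without WT shEmpty replicate 3 it was 0.0786 for RLTR1B.

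Of the genes named, Gm6792 fell less in TET TKO than in WT (interaction 1.75), 2310043M15Rik less in DNMT TKO (1.80), D930048N14Rik less in both (1.06 in DNMT TKO and 1.25 in TET TKO) and Timm8a2 less in TET TKO (1.40). Gm17514 rose in WT and had 0 and 0 reads in TET TKO shKap1 (interaction -6.20).

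The 4 hMeDIP-seq libraries in no group were looked at for the share of their reads over these regions. It was 8.42%, 8.15% and 17.7% in 3 of them, above the 8.13% and 7.26% of the assigned inputs, and 7.74% in the other. The assigned libraries ranged from 7.26% to 15.3%.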

How the results depend on the processing

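Scaling by H3K4me3-region reads and leaving out the region with most 5hmC reads turned the median 5hmC differences of RLTR6, H3K4me3 and H3K27me3 members and the difference at Grb10 negative. No RNA value listed here changed direction. For 5hmC the median difference over members (0.82) was 0.43 with scaling by H3K4me3-region reads, 0.45 without the region with most 5hmC reads, 0.79 with 5 added reads, 0.86 with at least 30 input reads, 0.68 for 5hmC without input and 0.84 where H3K9me3 covered at least 50% of the region, and the gap to the other KAP1 regions was 0.49 with at least 30 input reads. In the order of the first 5 of these settings, the share at least 2-fold higher was 22.0, 22.8, 37.8, 42.2 and 31.3%, and in the order of the first 4 the shEmpty level was 1.28, 0.31, -0.098 and -0.019. That level was not computed without input, where it is another quantity.

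Counting only integrants with at least 50% of their bases in the member, which keeps fewer of them, gave 2117, 2477 and 2145 called up in WT, DNMT TKO and TET TKO, 81 and 30 interactions and 216 and 109 differences between genotypes. Interactions in DNMT TKO (285) numbered 486 with limma-voom and 173 with DESeq2, and in TET TKO (154) 92 with DESeq2 and 93 with at least 50 reads. Differences without knockdown numbered 584 (DNMT TKO, 997) and 227 (TET TKO, 388) with DESeq2. Nearest genes called up numbered 592 and 513 in WT and DNMT TKO with no fold threshold, 134, 122 and 124 in WT, DNMT TKO and TET TKO within 5 kb, 573 and 539 in the first 2 within 100 kb, and 516 in DNMT TKO by gene body. The cause of the tool differences was not tested.

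Leaving out 1 library gave 3574 to 3916 integrants called up in WT, 4542 to 4765 in DNMT TKO and 3389 to 3799 in TET TKO, 222 to 300 and 92 to 160 interactions, 740 to 877 and 252 to 338 differences without knockdown, and 340 to 352, 303 to 319 and 256 to 271 nearest genes called up. With the replicate number as a block the paired fit called 4002, 5031 and 4214 integrants up, 305 and 165 interactions, 970 and 370 differences, and 366, 342 and 311 genes, moving none by over 1.5 times.

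Of the named integrants and genes, 12 of 377 values lost their call under another setting and 18 of 316 with a library left out. They belong to 6 interactions (IAPEz on chromosome 11, MuLV, IAPEy, L1Md_A on chromosome 1, ERVB2_1-I and RLTR1B), an L1Md_A copy at chr2:21917586-21924173 (with a minimum of 1 read or only the groups compared), a RLTR45 copy at chr4:8044183-8051623 (limma-voom) and Gm17514. The 5hmC values rest on 1 library per condition, and a member with the median depth has 18 and 23 input reads, which limits what a single region can show.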
